A study of Homo sapiens with 4 samples.

Results

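The S100, small proline-rich (SPRR) and late cornified envelope (LCE) genes, together with IVL, LOR, FLG and TGM1, were followed in breast epithelial cells with and without a shRNA against the kinase PAK1. Of 18 tested genes named S100, 10 were lower and 4 higher (3 without S100PBP, a binding partner gene). Among all genes tested 31.8% were lower and 31.0% higher. S100A9, S100A3, S100A12 and S100A4 were at least 2-fold lower in PAK1 shRNA cells, and S100P was the only S100 gene at least 2-fold higher. Of 9 tested SPRR genes 7 were higher and 0 lower, and of 15 tested LCE genes 7 were higher and 0 lower. The largest rises were those of LCE5A, SPRR2A and SPRR2E. The LCE share called was 46.7%, under the 62.8% of all genes. When each gene's spread came from its own arrays alone, 3 SPRR genes stayed called, and SPRR2A and SPRR2E did not. IVL and TGM1 were each at 240% of control. The size of the rise depended on the background handling for IVL (0.77 to 1.84 in log2 units) and for LCE5A (1.21 to 3.7). Members were the non-control spots whose gene name in the array design starts with S100, SPRR or LCE in the symbol pattern of the family, plus the 4 genes named above. They came to 54 genes on 66 probes and 75 spots per array, out of 27193 gene names, 34127 probes and 43118 spots. The rule reads gene names only.

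MCF10A is an immortalised, non-tumorigenic human mammary epithelial line with basal features, and MCF10A.B2 is its derivative carrying a chimeric ErbB2 (Her2) receptor that a chemical crosslinker brings together and so activates. Control MCF10A.B2 cells were measured on 2 arrays, as were MCF10A.B2 cells with a Tet inducible PAK1 shRNA, and all were grown in DMEM/F12 with horse serum. Both groups were starved of serum for 3 h and then given the crosslinker AP1510 for 15 min, so Her2 signalling had been switched on in control cells too. The first group is labelled only as control. For the arrays the methods list MCF10A.B2 cells beside MCF10A.B2 cells expressing the shRNA, and do not describe induction. The wording points to the parental line, but the shRNA line without induction cannot be told apart from it by the labels. No array of a non-targeting shRNA was analysed here. An effect of carrying a shRNA and an effect of PAK1 loss therefore cannot be told apart either. The design text speaks of tumor-derived cells, whereas the labels and the methods name the cell line, which was followed. Whether the replicates were separate cultures is not stated, so p-values measure only the spread between these samples, which may be technical. All 4 arrays lay on 1 slide.

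Most of these genes sit side by side in the epidermal differentiation complex on the long arm of chromosome 1, a cluster switched on as keratinocytes leave the basal layer. S100 proteins are small calcium sensors with paired EF-hand motifs that bind annexins, cytoskeletal proteins or cell-surface receptors. Involucrin (IVL), loricrin (LOR), SPRR and LCE proteins are precursors of the cornified envelope, and transglutaminase 1 (TGM1) crosslinks them beneath the plasma membrane. Filaggrin (FLG) bundles keratin filaments. Mammary epithelium is not cornified, but basal lines such as MCF10A express several S100 and SPRR genes in culture. On these arrays 49 members lay on chromosome 1, and 48 of them had probes within chr1:151955420-153604335 (hg19), a span of 1649 kb. TGM1 was probed at chr14:24718451-24718510 and S100P at chr4:6698819-6698878. S100PBP matches the naming rule but encodes a binding partner of S100P and not an S100 protein.

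The windows upstream of 4 members that moved far in opposite directions are shown, since they let the start regions of a falling pair and a rising pair be set side by side. Sequences are those of RefSeq (GRCh38.p14), 250 bases ending at the base before the annotated start, 5′ to 3′ on the gene's strand. Capitals mark matches to a TATA box (TATAAA, given strand), to an AP-1 element (TGANTCA, which reads the same on both strands), to a C/EBP element (TTGCNNAA, both strands) and to an interferon regulatory factor element (GAANNGAAA, both strands). No match overlapped another in these windows. S100A9 is on the plus strand at chr1:153357604-153357853, S100A12 on the minus strand at chr1:153375622-153375871, SPRR2A on the minus strand at chr1:153057513-153057762 and IVL on the plus strand at chr1:152908296-152908545.
S100A9: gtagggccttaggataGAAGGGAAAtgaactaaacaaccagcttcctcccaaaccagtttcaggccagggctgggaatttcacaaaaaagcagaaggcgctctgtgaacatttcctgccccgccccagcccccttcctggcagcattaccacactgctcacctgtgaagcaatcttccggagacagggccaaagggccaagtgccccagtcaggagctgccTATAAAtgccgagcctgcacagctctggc
S100A12: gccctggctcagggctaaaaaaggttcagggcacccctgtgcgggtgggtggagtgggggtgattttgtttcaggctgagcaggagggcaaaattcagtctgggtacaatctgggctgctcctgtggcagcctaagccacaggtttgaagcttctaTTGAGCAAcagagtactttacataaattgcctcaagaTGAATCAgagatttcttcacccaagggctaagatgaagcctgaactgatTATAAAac
SPRR2A: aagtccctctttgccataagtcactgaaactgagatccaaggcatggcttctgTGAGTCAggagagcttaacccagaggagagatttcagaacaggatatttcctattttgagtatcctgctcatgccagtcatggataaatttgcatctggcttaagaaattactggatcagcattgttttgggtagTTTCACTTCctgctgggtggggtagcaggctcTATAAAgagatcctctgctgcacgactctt
IVL: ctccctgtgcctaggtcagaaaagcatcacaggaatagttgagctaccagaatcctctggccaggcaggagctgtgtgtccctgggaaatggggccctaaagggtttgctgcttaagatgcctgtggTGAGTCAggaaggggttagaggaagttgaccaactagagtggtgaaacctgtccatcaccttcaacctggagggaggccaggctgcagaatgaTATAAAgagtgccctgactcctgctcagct
The TATAAA matches end 23 bases before the start in S100A9, 2 in S100A12, and 24 in both SPRR2A and IVL. AP-1 letters stand in S100A12, SPRR2A and IVL. The windows shown are not all those of the largest changes. Among windows not shown, S100A3 (-1.66) had AP-1 letters and no TATAAA, whereas LCE5A (2.08) and S100P (1.54) had TATAAA and no AP-1 letters.

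All 54 members matched a RefSeq gene and 47 had an entry in the promoter table. The motif search ran over the 300 bases from 250 before to 50 after each start. TATAAA stood in 9 of 15 higher members with an entry, in 5 of 10 lower members and in 8 of 15 members that did not pass the test, against 8.99% of all 27305 genes in the table. The share was thus high among members in either direction. AP-1 letters stood in 6 of 15, 3 of 10 and 4 of 15 of the same groups, against 9.37% of all genes. C/EBP letters stood in 2 of 15, 1 of 10 and 4 of 15, against 12.7%. The interferon regulatory factor letters stood in 2 of 15 (S100PBP and SPRR2A), 1 of 10 (S100A9) and 0 of 15, against 9.31%. These matches describe letters in a window and not binding.

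PAK1 itself gave a limited check of the labels. Its normalized log2 intensity, the base-2 logarithm of background-corrected and quantile-normalized brightness used throughout, read 11.19 and 11.27 in control cells against 10.44 and 10.52 in PAK1 shRNA cells. The groups did not overlap, and PAK1 fell by 0.75 (SE 0.08, n = 2 per group, limma with Benjamini-Hochberg adjusted p = 0.00018), which left 59.5% of the control level. Since 31.8% of all genes were lower and 81.8% did not overlap, this fall alone does not establish the labels. Between 78.9% and 83.2% of probes were well above background on each array, and no member probe was saturated. Because intensities of different probes cannot be compared, each value below is read only against the same probe on other arrays. The exception is the marker sums, which add different probes and are compared only between arrays. In these bulk samples fewer cells of a type and less RNA per cell cannot be told apart.

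Of the 54 members, 45 were well above background in at least 1 group and were tested, and all 45 were so on all 4 arrays. At an adjusted p under 0.05, 20 were higher in PAK1 shRNA cells, 10 were lower and 15 were not called. The members called were 66.7% of those tested, against 62.8% of all 22023 genes tested, of which 31.0% were higher and 31.8% lower. The share of members called was thus near the background, and nothing is read from it. In 39 of 45 members the groups did not overlap, against 81.8% of all genes. A fold of at least 2 with the same adjusted p was reached by 7 members upward (8.85% of all genes) and 4 downward (8.95%). The median log2 fold change, PAK1 shRNA minus control, was 0.18 over the tested members and 0.02 over all genes. Taken gene by gene, 2 against 2 arrays cannot give an exact permutation p below 0.333, and limma reaches lower values by sharing the spread over all genes.

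**Figure D1:**
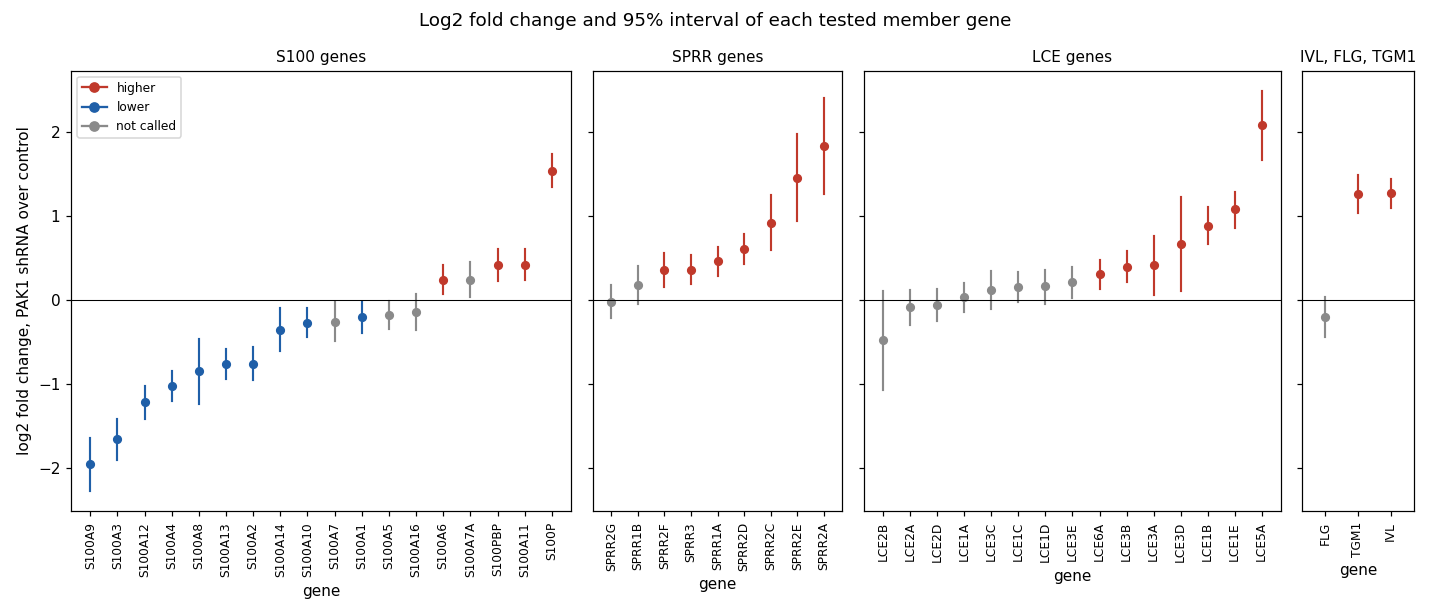
Log2 fold change, PAK1 shRNA over control, of the 45 tested members, by family; points are limma estimates and bars are 95% confidence intervals (2 arrays per group). S100 genes span -1.96 to 1.54 with 10 of 18 called lower, while no SPRR or LCE gene was called lower.

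The 9 members not tested were S100B, S100G, S100Z, S100A7L2, SPRR4, LCE4A and LOR, which were well above background on 0 arrays, LCE2C, which was so on control array 2 alone, and SPRR2B, on control array 1 alone. Loricrin, the main protein of the mature epidermal envelope, was thus not measured above background in either group.

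S100 genes made up 22 members, of which 18 were tested. In PAK1 shRNA cells 10 were lower, 4 higher (3 without S100PBP) and 4 not called, beside 31.8% lower and 31.0% higher among all genes, and the median was -0.26 against 0.02. No test compared the family with other genes. S100A9 is a subunit of calprotectin, the calcium- and zinc-binding heterodimer of neutrophils and inflamed epithelium. Its log2 intensity was 14.72 and 14.92 in control cells and 12.69 and 13.03 in PAK1 shRNA cells. Both shRNA arrays lay far under both control arrays, and S100A9 fell by 1.96 (SE 0.13, limma adjusted p = 2.8e-05), to 25.7% of control. S100A8, the other calprotectin subunit, read 16.10 and 16.31 against 15.12 and 15.59. It fell by 0.85 (SE 0.16, adjusted p = 0.0033), again without overlap, to 55.4% of control. Its call was lost (adjusted p = 0.13) when the spread came from its own arrays alone, without limma's sharing across genes. S100A12, the third calgranulin and a ligand of the receptor AGER, read 9.12 and 9.28 against 7.97 and 7.98. It fell by 1.22 (SE 0.08, adjusted p = 3.1e-05), and its other probe gave -1.11.

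A second set of lower S100 genes lay at the far end of the cluster. S100A3, a cysteine-rich member known from the hair cuticle, read 14.28 and 14.08 in control cells and 12.61 and 12.43 in PAK1 shRNA cells. It fell by 1.66 (SE 0.10, adjusted p = 2e-05), to 31.6% of control. S100A4, which binds non-muscle myosin and is associated with cell motility, read 13.19 and 13.27 against 12.20 and 12.21. Its replicates were nearly alike and its groups well apart, with a log2 fold change of -1.03 (SE 0.07, adjusted p = 3.8e-05). S100A2, an epithelial member under p53-family control, read 18.49 and 18.63 against 17.77 and 17.84, and fell by 0.76 (adjusted p = 0.00027). S100A13, which takes part in the release of FGF1, read 16.17 and 16.18 against 15.38 and 15.44 and likewise fell by 0.76 (adjusted p = 0.00013). The 4 genes kept their call under every alternative tried.

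The other lower S100 genes moved little. S100A14, an epithelial member, fell by 0.36 (adjusted p = 0.023), S100A10, the light chain of annexin A2, by 0.27 (adjusted p = 0.014), and S100A1, known from heart and skeletal muscle, by 0.21 (adjusted p = 0.048). These 3 calls depended on single arrays and on the scaling. S100A1 lost its call without any 1 of the 4 arrays and was at 0.05 under median centring. S100A10 lost it without either shRNA array (-0.28 and -0.26), and S100A14 without control array 1 (-0.23) or shRNA array 2 (-0.29). With cyclic loess S100A10 was at -0.04 and S100A14 at -0.12, neither of them called.

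S100P, which binds ezrin and is frequently raised in carcinomas, went the other way. Its log2 intensity was 10.80 and 10.77 in control cells and 12.26 and 12.39 in PAK1 shRNA cells. It rose by 1.54 (SE 0.08, adjusted p = 1e-05), to 291% of control, and the spread within each group was small beside that step. Its binding partner gene S100PBP read 12.53 and 12.42 against 12.90 and 12.88, a rise of 0.41 (adjusted p = 0.0033). S100A11, a partner of annexin A1, rose by 0.42 (adjusted p = 0.0024), from 15.57 and 15.51 to 15.94 and 15.99, and its other probe gave 0.38. S100A6 (calcyclin) was called at 0.24 (adjusted p = 0.025), a call that was lost without any 1 of the arrays.

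The 4 tested S100 genes that were not called were S100A7 (psoriasin) at -0.26 (adjusted p = 0.052, 95% interval -0.49 to -0.03), S100A7A at 0.24 (adjusted p = 0.053, interval 0.03 to 0.45), S100A5 at -0.18 (adjusted p = 0.066) and S100A16 at -0.14 (adjusted p = 0.20). S100A16 was at 0.04 with cyclic loess. S100A7 passed the threshold in 7 of 17 alternatives (among them the authors' table, at adjusted p = 0.027, and leaving out shRNA array 2, at -0.37). S100A7A did so in 8 of 16 (among them median centring, at 0.49, and leaving out control array 2, at 0.31). Their status is therefore not firm.

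**Figure D2:**
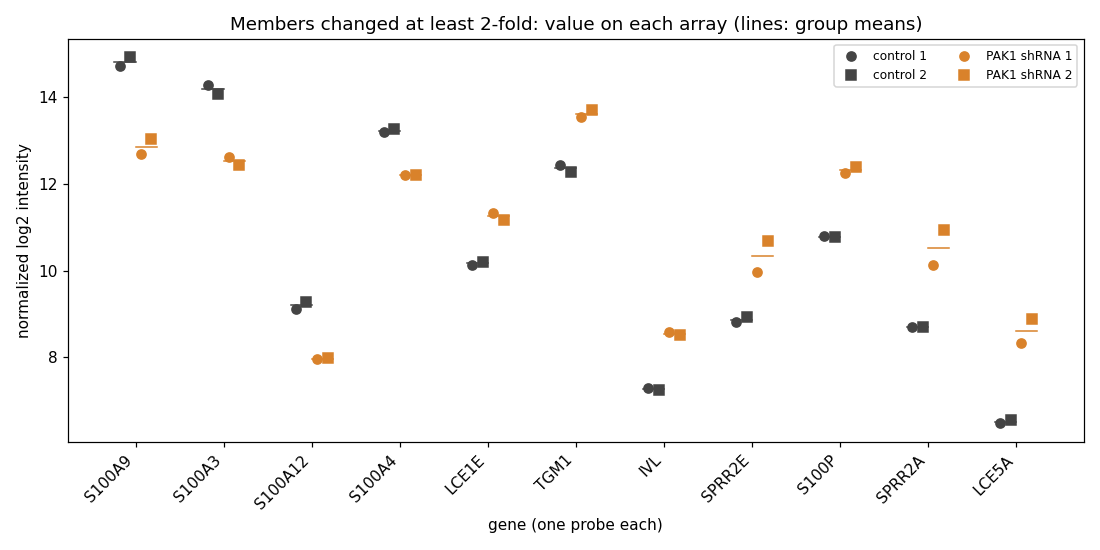
Normalized log2 intensity of the 11 members that changed at least 2-fold, with 1 point per array (circles replicate 1, squares replicate 2) and lines at the group means; heights of different genes come from different probes and are not comparable. S100A9, S100A3, S100A12 and S100A4 were lower on both PAK1 shRNA arrays, the other 7 were higher on both, and the shRNA arrays stood farthest apart for SPRR2A (10.13 and 10.94).

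SPRR proteins are short, proline-rich crossbridges of the cornified envelope. Of 11 SPRR genes 9 were tested, and 7 of these were higher, 0 lower and 2 not called, with a median of 0.46. Among all genes 31.0% were higher. SPRR2A read 8.70 and 8.71 in control cells and 10.13 and 10.94 in PAK1 shRNA cells. The control arrays were almost identical and the shRNA arrays differed from each other, but no value overlapped, and SPRR2A rose by 1.83 (SE 0.24, adjusted p = 0.00056), to 355% of control. SPRR2E read 8.82 and 8.93 against 9.97 and 10.68, a rise of 1.45 (SE 0.21, adjusted p = 0.001). SPRR2C, annotated as a pseudogene, read 8.48 and 8.53 against 9.22 and 9.64 and rose by 0.92 (adjusted p = 0.0011). In SPRR2A, SPRR2E and SPRR2C shRNA array 2 was the higher of the shRNA pair. When each gene's spread was estimated from its own arrays alone, without limma's sharing across genes, these 3 no longer passed, at adjusted p of 0.085, 0.10 and 0.09, nor did SPRR2F (0.094), which left 3 SPRR genes called higher.

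SPRR2D rose by 0.61 (10.93 and 10.84 against 11.52 and 11.47, adjusted p = 0.00047) and SPRR1A by 0.46 (11.69 and 11.65 against 12.13 and 12.13, adjusted p = 0.0014). SPRR3, the main member of the family in oesophagus, rose by 0.36 (7.45 and 7.41 against 7.77 and 7.81, adjusted p = 0.0045). SPRR2F was called at 0.36 (adjusted p = 0.0095), but not without shRNA array 2 (0.29) nor under median centring (0.24). SPRR1B, the closest relative of SPRR1A, stood at 0.18 (95% interval -0.05 to 0.40, adjusted p = 0.15). SPRR2G was at -0.02 (interval -0.22 to 0.18), and turned positive under 5 alternatives, with a call at 0.26 (adjusted p = 0.027) under median centring.

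Probes of 1 gene moved the same way in 7 of the 9 members with a pair of tested probes, though not by the same amount. The second SPRR2D probe rose from 8.13 and 8.25 to 9.5 and 10.06, a change of 1.59. The second SPRR1A probe rose from 7.80 and 7.92 to 9.05 and 9.34, a change of 1.34. Both exceeded the change of the brighter probe of the gene, whereas for SPRR2A the second probe gave 1.07. Averaging probes raised SPRR1A to 0.90 and SPRR2D to 1.10. FLG (-0.20 and 0.02) and LCE1C (0.15 and -0.12) had probes of opposite sign, none of them called, where 63.8% of all 27544 probes tested were.

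**Figure D3:**
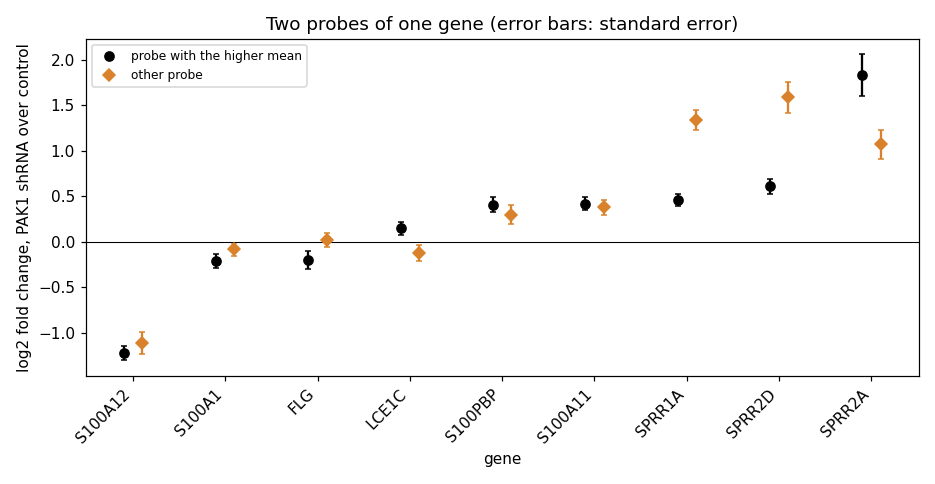
Log2 fold change of the brighter probe (black) and of the other probe (orange) for the 9 members with a pair of tested probes; bars are standard errors. The SPRR1A and SPRR2D probes stand apart (0.46 and 1.34, 0.61 and 1.59), whereas the S100A12 and S100A11 probes nearly coincide.

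Members of the SPRR2 and LCE1 groups are near copies, so their probes may share targets, and cross-hybridisation was not tested. Of 2132 pairs of member probes compared, those of SPRR2E and SPRR2F were the most alike, with 54 of 60 bases identical. The first 30 probe bases of that pair are shown with differing bases in capitals, read on the minus strand at chr1:153065702-153065731 and chr1:153084686-153084715 (hg19).
SPRR2E: aaccatCaAaAaatGctgttgatgttttct
SPRR2F: aaccatTaGaGaatTctgttgatgttttct
The probes differ at 4 of these bases, and gave log2 fold changes of 1.45 (SPRR2E) and 0.36 (SPRR2F). Since probes of 1 gene differed by nearly as much in SPRR1A and SPRR2D, this does not show that the genes responded unequally. The LCE1A and LCE1D probes matched over 43 of 55 aligned bases, with no mismatch across 30 of them, and read 0.03 and 0.16.
LCE1A and LCE1D: tgtccccctaagtgccctccagtctcttcc
This shared stretch lies on the plus strand at chr1:152800045-152800074 in LCE1A and at chr1:152770355-152770384 in LCE1D.

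LCE proteins are small envelope precursors added late in cornification, in numbered groups that lie together on the chromosome. Of 17 LCE genes 15 were tested, with 7 higher, 0 lower and 8 not called, and a median of 0.21. The share called was 46.7%, under the 62.8% of all genes. LCE5A read 6.48 and 6.56 in control cells and 8.33 and 8.88 in PAK1 shRNA cells. Both shRNA arrays stood far above both control arrays, and LCE5A rose by 2.08 (SE 0.17, adjusted p = 6.7e-05), to 423% of control. The size of that rise depended on the background handling, from 1.21 with normexp fitted on all spots to 3.70 on Agilent's processed signal. LCE1E read 10.13 and 10.20 against 11.34 and 11.16 and rose by 1.08 (SE 0.09, adjusted p = 7.1e-05). LCE1B read 9.24 and 9.19 against 10.21 and 9.99 and rose by 0.88 (adjusted p = 0.00023).

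Calls were mixed within the LCE1 group. LCE1A (0.03, 95% interval -0.15 to 0.20), LCE1C (0.15, interval -0.02 to 0.33) and LCE1D (0.16, interval -0.05 to 0.36) did not pass the test beside LCE1E and LCE1B, although LCE1C passed in 3 alternatives and LCE1D in 2. Among the LCE3 genes LCE3B rose by 0.39 (7.84 and 7.93 against 8.24 and 8.31, adjusted p = 0.0042). LCE3D read 7.10 and 6.92 against 8.06 and 7.29 (0.67, adjusted p = 0.042) and LCE3A 6.44 and 6.39 against 7.05 and 6.60 (0.41, adjusted p = 0.044). Both rested on shRNA array 1, without which they fell to 0.28 and 0.19 and lost the call, as they also did without either control array. LCE3E (0.21, adjusted p = 0.051) and LCE3C (0.12) were not called, but passed in 5 and 2 alternatives. LCE6A rose by 0.31 (7.65 and 7.58 against 7.92 and 7.92, adjusted p = 0.010). In the LCE2 group, LCE2A (-0.09), LCE2D (-0.06) and LCE2B (-0.48) were not called, and LCE2D was called higher at 0.33 (adjusted p = 0.039) on the processed signal scaled to its 75th percentile. LCE2B read 6.78 and 7.59 against 6.82 and 6.59, so its groups overlapped and control array 2 stood apart. Without control array 1 it passed the threshold at -0.88.

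IVL, the scaffold on which the envelope is assembled, read 7.30 and 7.26 in control cells and 8.58 and 8.51 in PAK1 shRNA cells. It rose by 1.27 (SE 0.07, adjusted p = 1.6e-05) with very little spread within groups. The size of that rise depended on the background handling, from 0.77 with normexp fitted on all spots to 1.84 on Agilent's processed signal. TGM1 read 12.44 and 12.28 against 13.55 and 13.70 and rose by 1.26 (SE 0.09, adjusted p = 4.5e-05). Over the alternatives TGM1 stayed between 1.18 and 1.37. Both kept their call under every alternative. FLG was not called at -0.20 (6.95 and 6.82 against 6.58 and 6.79, adjusted p = 0.12), and was positive under 3 alternatives (0.04 to 0.26). The envelope scaffold and its crosslinking enzyme were therefore higher, loricrin was not well above background, and filaggrin was not shown to change.

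In map order calls of the same direction lay near one another, with genes that were not called among them. The families lie together on the map, so this order in part restates their counts. Among all genes 31.0% were higher and 31.8% lower. Starting from S100A10 (lower) and S100A11 (higher), the genes from LCE5A through the LCE1 group, LCE6A, IVL and the SPRR genes held all the higher LCE and SPRR calls and no lower call. The run S100A9, S100A12 and S100A8 followed, all lower. After S100A7A and S100A7 (neither called), S100A6 was higher and S100A5 was not called. S100A4, S100A3 and S100A2 were lower together, as were S100A14, S100A13 and S100A1, with S100A16 not called between them. Neighbouring genes share no replicates beyond these 4 arrays, and runs were not tested.

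**Figure D4:**
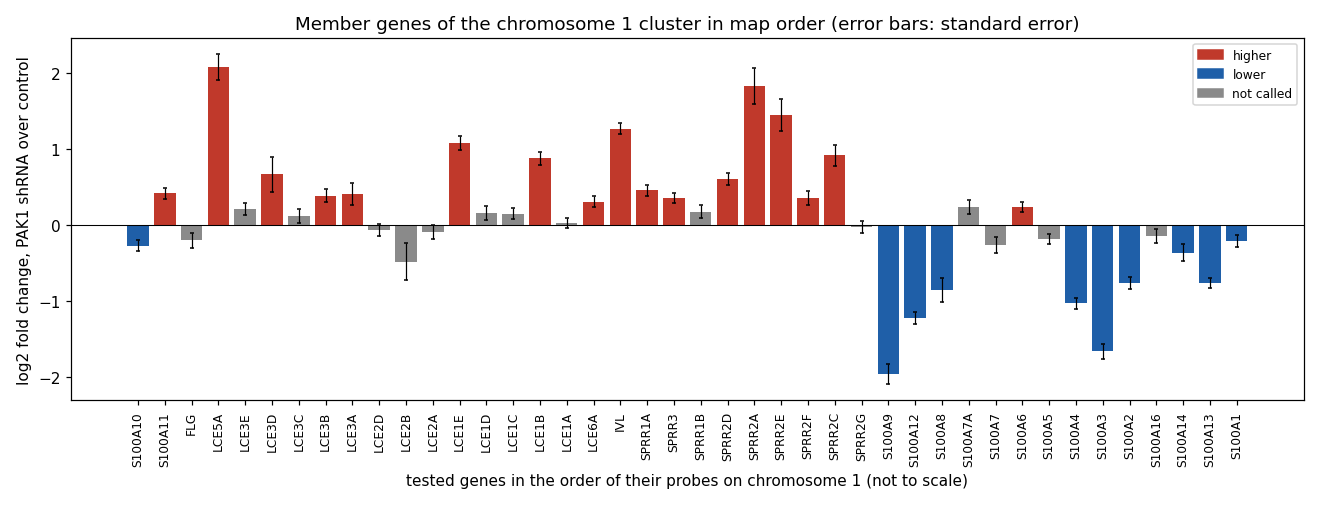
Log2 fold change (bars from 0, error bars SE) of the tested members of the chromosome 1 cluster, in the order of their probes and not to scale. The LCE to SPRR stretch holds higher calls and no lower one, with LCE5A at 2.08 and SPRR2A at 1.83, and the S100 stretch beyond it holds lower calls, with S100A9 at -1.96 and S100A3 at -1.66, apart from S100A6 (higher, 0.24); S100A10 (lower) and S100A11 (higher) lie before both.

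Of 14 other listed genes of the complex 8 were tested (12.5% called, against 62.8% of all genes). Of these 1 was higher (C1orf68, 7.62 and 7.71 against 8.5 and 8.54, a rise of 0.85 at adjusted p = 0.0001) and 0 were lower. The count depended on the scaling, with 6 of them called higher under median centring and 4 on Agilent's processed signal scaled to the 75th percentile. CRNN (-0.03), TCHH (-0.12) and CRCT1 (-0.03) did not pass the test. Other genes of keratinocyte terminal differentiation outside the complex went both ways, with 15 higher and 11 lower of 41 tested (63.4% called, against 62.8% of all genes) and a median of 0.09. The antiprotease elafin (PI3) rose by 1.89, the channel-activating protease PRSS8 by 1.55, the tight junction gene CLDN1 by 1.46 and sciellin (SCEL), an envelope precursor, by 1.38. Lower genes were led by KRT13 (-3.60), the suprabasal keratin of wet epithelia, the desquamation protease KLK5 (-1.62), the suprabasal keratin KRT10 (-1.33) and the calmodulin-like CALML5 (-1.30).

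Of 28 tested transcription factors of epithelial differentiation, 17 were higher and 7 lower, beside 31.0% and 31.8% of all genes, and the median was 0.32. No test was made of the list as a whole. ATF3, a stress-induced AP-1 family factor, read 9.39 and 9.93 against 14.94 and 15.35 and rose by 5.48. KLF4, which drives barrier formation, read 7.20 and 7.17 against 10.58 and 10.97 and rose by 3.59. PRDM1 rose by 1.45. CEBPA, a factor of both myeloid and suprabasal epidermal cells, read 10.64 and 10.62 against 7.50 and 7.11 and fell by 3.33. HOXA7 (-1.38), the basal factor TP63 (-1.13) and the AP-1 subunit FOS (-1.09) were lower too. Among 18 receptors and binding partners of S100 proteins, all tested, 8 were higher and 6 lower (77.8% called, against 62.8% of all genes), with a median of 0.08. TLR4, a receptor for calprotectin, rose by 2.46. ALCAM rose by 1.02 and BSG, also a calprotectin receptor, by 0.90. The annexins ANXA6 (-1.5), ANXA5 (-0.65) and ANXA2 (-0.55) were lower, as was CACYBP (-1.34), the partner of S100A6. Of the other annexins listed, ANXA1 was higher (0.27) and ANXA11 was not called. AGER, the receptor named for S100A12, was not called at -0.20.

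Cell type markers moved as well, and their part in the members' changes was not tested. All 8 basal markers were well above background on all 4 arrays, with 5 lower and LAMB3 (1.34) higher. The 4 largest falls were those of KRT5 (-1.14), TP63 (-1.13), KRT14 (-0.95) and KRT17 (-0.72). The summed linear level of all 8 was 516300 and 464000 in control cells and 565600 and 589300 in PAK1 shRNA cells. Such sums are carried by the brightest probe, here LAMB3, and without it they were 378700 and 341700 against 256000 and 243400. Since S100A8, S100A9 and S100A12 are also genes of myeloid cells, myeloid markers stand beside them. Of 8 listed, 6 were tested, 4 were higher and 0 lower, with sums of 21650 and 20650 against 53610 and 58780, or 2700 and 2471 against 8848 and 10470 without CD14, the brightest. CD68 rose by 3.75, CD14 by 1.32, CSF1R by 0.66 and ITGAM by 0.46. The pan-leukocyte gene PTPRC read 7.65 and 7.79 against 7.85 and 7.84 and was not called, FCGR3A was not well above background, and LYZ was not found by name. Of 8 luminal markers 6 were tested, with FOXA1 (1.48) and KRT18 (0.48) higher and KRT19 (-1.02) and GATA3 (-0.49) lower, and sums of 164800 and 159800 against 230000 and 207900, or 17340 and 16340 against 15570 and 15980 without KRT18. Of 8 fibroblast markers 4 were tested, with LUM (1.79), DCN (0.88) and COL1A1 (0.87) higher and PDGFRB (-0.58) lower, and sums of 4707 and 3945 against 7992 and 7781, or 667.6 and 548.6 against 1055 and 1128 without DCN. COL1A2, COL3A1, PDGFRA and THY1 were not well above background in either group.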

How the data were processed

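Total RNA from MCF10A.B2 cells was labeled with Cy3 and hybridized by the authors to 4 Agilent one-colour arrays. Spot intensities were deposited as Agilent Feature Extraction (version 9.5 per the labels) gave them, without scaling across arrays. A table of log2 values that the authors deposited served as an alternative. Its column medians were 9.40 to 9.42, each column correlated best with its own array, and the methods name normexp and quantile normalization without an offset. Intensities were corrected with normexp (offset 50), fitted without spots of flagged background, then quantile normalized and taken to log2. Control spots and outlier flags were left out, and 23 genes were fitted with 1 array missing. Each gene was represented by its probe of highest mean, among probes that both arrays of either group showed well above background. Groups were compared with limma 3.58.1 in R 4.3.3 and Benjamini-Hochberg adjustment over all 22023 genes, at 0.05. The pipeline was tested on simulated data. Members and gene lists were chosen with earlier results of these data known. Every member and PAK1 were named, and of each other list the 4 largest rises and falls that passed the threshold, except some that are not reported here. A few genes outside that rule (CRNN, TCHH, CRCT1, AGER, ANXA1, ANXA11, PTPRC and markers not tested) were chosen after their values were seen. Alternatives covered background correction, scaling, filters, probe averaging, an unpaired t-test from the general statistics paragraph of the methods (limma is named there for arrays), a replicate block and leaving out each array. The number of arrays limits the precision. Probe coordinates are hg19 from the scanner files, and genes carry the names used by the array design.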

Additional observations from a re-analysis of the deposited data

How the results depend on the processing

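Over 764 values of the 45 tested members under alternatives, 671 kept direction and side of the threshold, 48 lost the call, 29 gained it and 16 changed sign. Of the 30 called members, 19 kept call and direction throughout (13 higher, 6 lower). The like share over all genes was not counted, so nothing about the members is read from it. Across background and scaling settings 18 to 24 members were higher and 7 to 11 lower. Of all genes 5873 to 8464 were higher and 6295 to 6986 lower under the same settings. The median of all genes moved to 0.12 when the processed signal was scaled to its 75th percentile and to 0.14 with median centring. At 2-fold, 7 and 4 members, 1950 and 1971 of all genes, and 18 and 11 genes of the other lists (41 and 24 otherwise) were higher and lower. The unpaired t-test of the methods' statistics paragraph is not the array test named there. After adjustment it gave 14 and 8 members, and 26 and 15 of the other lists. Of all genes it called 4370 higher and 4764 lower (6823 and 7009 with limma). Leaving out each array gave 17 to 18 members higher and 8 to 9 lower, 5760 to 6402 and 6038 to 6563 of all genes, and 32 to 37 and 22 to 23 of the other lists; the lone array left was assumed to vary like the other group. With the replicate number as a block, members numbered 21 higher and 10 lower and all genes 6975 and 7070. Arrays of 1 number did not deviate alike from their group means (r = 0.009 over 27517 probes), so the block pairs nothing.

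Sign changes concerned members not called otherwise, except S100A1, and in LCE2D (75th percentile, adjusted p = 0.039) and SPRR2G (median centring, adjusted p = 0.027) they came with a call. FLG was at 0.26 with the 75th percentile, 0.04 with median centring and 0.04 in the authors' table. LCE2A was at 0.03 and 0.07 under the first 2 of these. LCE2D was at 0.33, 0.24 and 0.09 under the same 3 and 0.06 without background correction. SPRR2G was at 0.30, 0.26 and 0.05, at 0.03 without background correction and at 0.06 without control replicate 1, while it was -0.10 without control replicate 2. S100A1 was at 0.05 with median centring and S100A16 at 0.04 with cyclic loess. The cause was not tested. In general dim probes are limited by signal over background. The members with a sign change were not all dim, as S100A16 read 15.89 and 16.08 in control cells.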
